A study of Mus musculus with 38 samples.

Results

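The 37 genes described here encode the machinery that carries glucose into muscle, stores and mobilises it as glycogen, splits it to pyruvate, and moves lactate and reducing equivalents across membranes. They were chosen by name, as glucose and lactate transporters, glycolytic enzymes with their regulators, glycogen enzymes and glycerol 3-phosphate dehydrogenases, and the Ensembl identifiers of the count table were matched to mouse symbols. The choice was made with earlier results of these data known, so the set is not independent of them. All 37 were found among the 27554 genes of the table, and all 37 passed the filter on low counts that left 12610 genes for testing.

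Gastrocnemius muscle was sequenced from male C57BL/6JRj mice, either young (12 to 13 weeks) or aged (23 to 25 months), 5 days after muscles of 1 leg had been injected with cardiotoxin, a snake venom toxin that destroys myofibres and is followed by regeneration from muscle stem cells. The mice were gavaged daily with nicotinamide (NAM, an NAD+ precursor, 200 mg/kg per day) together with pyridoxine (PN, a vitamin, 4 mg/kg per day), or with the vehicle, 1% sodium carboxymethyl cellulose. The contralateral muscle, which was not injected, gave 6 libraries of young mice on vehicle, 5 of young mice on NAM/PN, 6 of aged mice on vehicle and 6 of aged mice on NAM/PN, and the injured muscle gave 5, 3, 3 and 4 libraries in the same order. The 38 libraries came from 23 mice, 15 of which gave both legs, so every contralateral muscle belonged to a mouse with an injured leg and no muscle of uninjured mice was sequenced.

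Skeletal muscle burns glucose through isoforms that differ from those of most other cells. Glut4 (Slc2a4) answers insulin and contraction whereas Glut1 (Slc2a1) is widely expressed, hexokinase 2 (Hk2) is the insulin-regulated hexokinase of muscle whereas hexokinase 1 (Hk1) is ubiquitous, and the muscle forms of phosphofructokinase (Pfkm), phosphoglycerate mutase (Pgam2) and enolase (Eno3) have counterparts (Pfkl and Pfkp, Pgam1, Eno1) that other cells use. Glycogen stored in the fibre is opened by the muscle phosphorylase (Pygm), which is switched on by phosphorylase kinase (Phka1, Phkb, Phkg1), and fast fibres export the lactate they make through Mct4 (Slc16a3). The questions were how the 37 genes differed between injured and contralateral muscle, whether the muscle and the widely expressed isoforms differed alike, and whether age or NAM/PN moved them.

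Libraries were sequenced from the 3′ ends of transcripts and held 4032414 to 7507191 counts, with a median of 4983924. Levels are given as CPM, a gene's counts as a part of its library, set to a common total, with library sizes scaled by TMM, which sets the bulk of genes level between libraries. They were compared between libraries and not between genes. All 20 genes of a fast myofibre list were detected in every library, and together they summed to 171921 to 310064 CPM in contralateral muscle, which carries the label of gastrocnemius, a mostly fast muscle. A few members could be counted only in part, because the last 500 bases of their transcripts share words of 50 bases with other genes and reads that match several genes may be left out: the shared part was 90.5% for Gapdh, 75.2% for Eno1, 24.4% for Ldhb, and 100% for Pfkp and Phkg1. Gapdh held 408 counts over all libraries, Pgk1 held 184 and Pgam1 held 167, so their values rest on few reads. The muscle and the embryonic transcripts of the pyruvate kinase gene Pkm come from 1 gene and cannot be told apart in gene counts.

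A set of 3 libraries stood apart for genes of liver: a list of 8 liver genes summed to 591 and 1342 CPM in young vehicle contralateral replicates 1 and 3 and to 188 CPM in young NAM/PN injured replicate 1, against at most 28.8 CPM in the others. Markers of macrophages, 12 genes, summed to 659 and 1451 CPM in aged vehicle contralateral replicates 3 and 6 and to at most 385 CPM in the other contralateral libraries. The spelling of the sample descriptions also split the libraries, since all aged mice and a part of the young vehicle mice (3 contralateral and 2 injured libraries) carried one spelling, and all young NAM/PN mice with the rest of the young vehicle mice (3 and 3) carried the other. What the spelling stands for is not given, so comparisons that cross it were repeated within it.

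RefSeq promoters (GRCm38.p6) were found for 35 of the 37 members, in 51 windows of 250 bases before a transcription start, and were searched on both strands for 3 motifs: CAGCTG, an E-box that myogenic factors such as MyoD bind, ACGTG, the core of the sites of hypoxia-inducible factors and of the CACGTG boxes bound by Usf and ChREBP, and the MEF2 box of muscle genes. No promoter was at hand for Gpd1 and Slc2a4. CAGCTG stood in 11 of the 51 windows (21.6%) against 13% of all 32851 promoter windows, ACGTG stood in 19 (37.3%) against 16.6%, and the MEF2 box stood in 3 (5.88%) against 2.92%. Among the members that were lower in injured muscle of young vehicle mice, 11 of 38 windows held CAGCTG, 15 held ACGTG and 3 held a MEF2 box. The 8 windows of the 5 members that were higher held none of the 3. These 8 include the 3 starts of Eno1, whose windows partly overlap. At the rates over all windows so few would hold few motifs or none, so no contrast between lower and higher members can be drawn. A match describes the letters of the window and is no evidence that a factor was bound there. The 160 bases next to the start are printed for 4 members that were lower and hold motifs, in capitals, and for 2 members that were higher and hold none. They begin with the muscle phosphoglycerate mutase and the muscle glycogen phosphorylase, followed by the glycogen-targeting phosphatase subunit, lactate dehydrogenase A, the platelet-type phosphofructokinase and enolase 1 at 1 of its 3 starts.
Pgam2, chr11:5803797-5803956, minus strand: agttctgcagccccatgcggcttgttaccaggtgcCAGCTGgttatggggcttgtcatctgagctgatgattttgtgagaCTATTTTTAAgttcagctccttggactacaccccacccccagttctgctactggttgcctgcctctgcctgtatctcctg
Pygm, chr19:6384248-6384407, plus strand: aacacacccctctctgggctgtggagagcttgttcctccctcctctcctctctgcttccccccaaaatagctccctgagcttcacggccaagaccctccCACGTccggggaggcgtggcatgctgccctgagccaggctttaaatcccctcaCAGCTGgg
Ppp1r3a, chr6:14755275-14755434, minus strand: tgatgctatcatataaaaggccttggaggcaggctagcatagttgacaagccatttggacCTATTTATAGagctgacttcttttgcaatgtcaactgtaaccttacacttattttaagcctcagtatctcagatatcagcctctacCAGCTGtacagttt
Ldha, chr7:46845644-46845803, plus strand: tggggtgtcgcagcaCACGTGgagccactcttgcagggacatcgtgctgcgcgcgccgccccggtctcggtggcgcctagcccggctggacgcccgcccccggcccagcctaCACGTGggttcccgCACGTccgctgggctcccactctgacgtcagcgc
Pfkp, chr13:6648772-6648931, minus strand: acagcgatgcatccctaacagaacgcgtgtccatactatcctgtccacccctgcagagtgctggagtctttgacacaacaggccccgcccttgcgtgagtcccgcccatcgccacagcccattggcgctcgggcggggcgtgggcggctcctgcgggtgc
Eno1, chr4:150237037-150237196, plus strand: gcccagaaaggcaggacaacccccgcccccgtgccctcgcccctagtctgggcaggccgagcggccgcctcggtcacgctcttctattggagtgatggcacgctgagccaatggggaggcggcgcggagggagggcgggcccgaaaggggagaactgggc
The Pgam2 and Ppp1r3a stretches pair an E-box with a MEF2 box, Pygm pairs an E-box with an ACGTG, and Ldha holds ACGTG only, where a CACGTG reads as ACGTG on both strands.

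Most of the pathway was lower after injury in young vehicle mice. Of the 37 members, 27 were lower and 5 were higher in injured than in contralateral muscle (edgeR quasi-likelihood test, Benjamini-Hochberg adjusted p under 0.05 over all 12610 genes), against 26.2% of all genes lower and 29.3% higher. The median log2 fold change was -1.75 over the members and 0.05 over all genes. The genes that fell lie in glucose entry, glycolysis, lactate formation and export, glycogen storage and breakdown, and the glycerol 3-phosphate shuttle, and the 5 that rose were Eno1, Hk1, Pfkp, Stbd1 and Pfkl. The muscle also changed its cells, so fewer fibres and less of each message per fibre cannot be told apart in bulk tissue: 17 of the 20 fast myofibre genes fell, with a median log2 fold change of -1.87, while all 12 macrophage genes (median 3.91), all 10 genes of regenerating muscle (median 4.37) and 7 of 8 fibroblast genes (median 2.77) rose. All 5 erythrocyte genes tested fell too (median -1.77). The summed fast myofibre level was 60210 to 105505 CPM in these 5 injured libraries and 223590 to 310064 CPM in the 6 contralateral ones, and its part in the members' values was not tested.

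**Figure D1:**
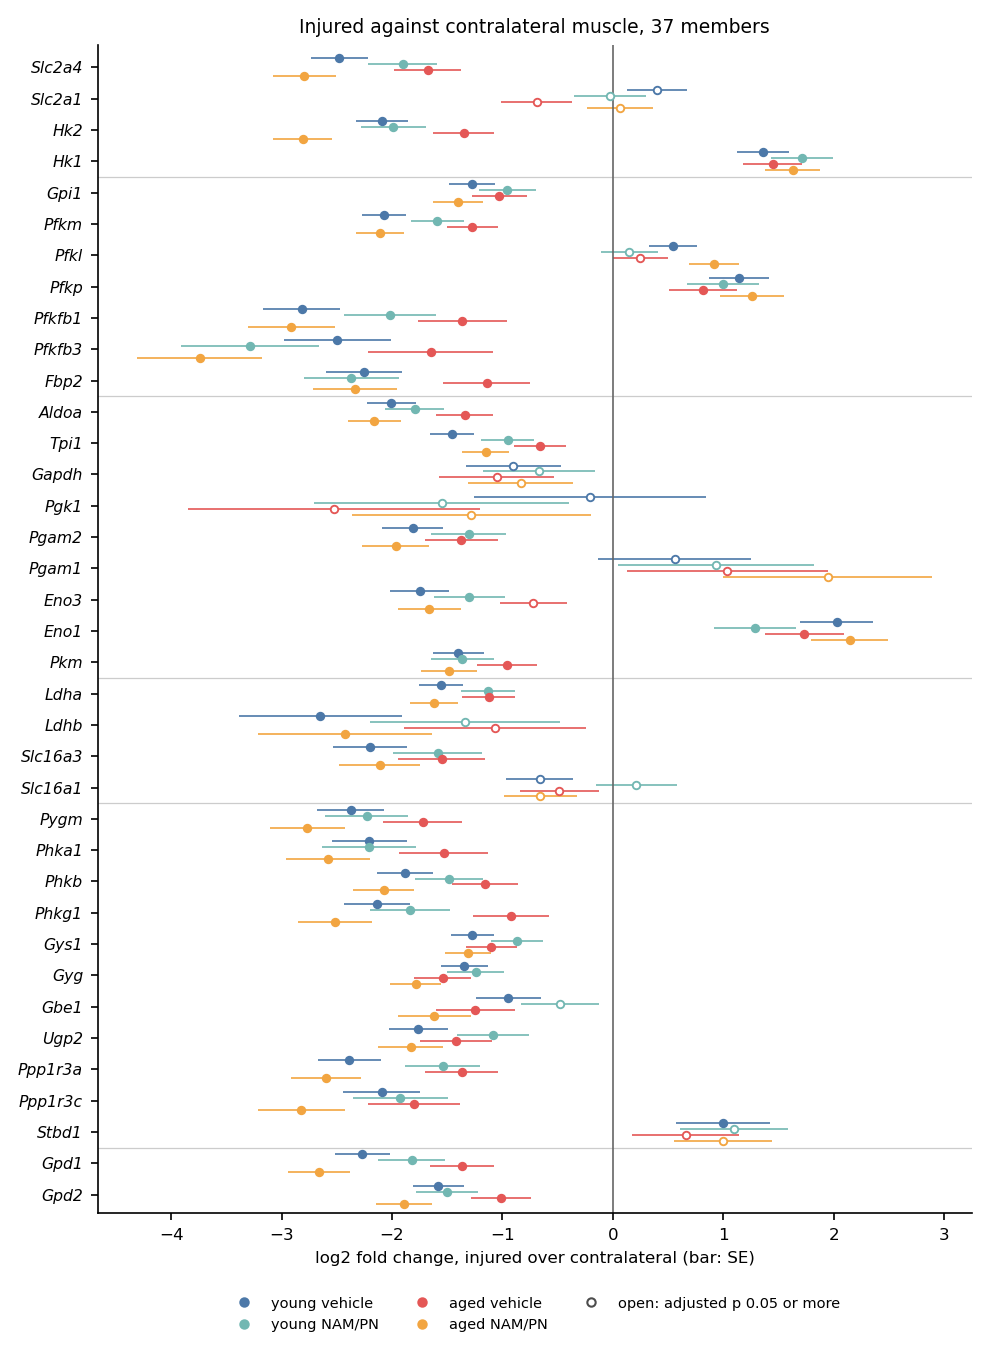
Log2 fold change of injured over contralateral muscle for the 37 members (rows, grouped by role) in the 4 combinations of age and treatment, with bars for the standard error and filled points for an adjusted p under 0.05. Most points lie left of 0, and Hk1, Pfkp and Eno1 lie right of 0 with filled points in all 4.

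Glucose entry and its first step split by isoform. Slc2a4, which encodes the insulin-regulated transporter Glut4, stood at 363 to 471 CPM (median 430) in contralateral muscle of young vehicle mice and at 41.6, 115, 63.1, 85.2 and 76.7 CPM in injured muscle. No injured library came near the contralateral range, and the log2 fold change was -2.48 ± 0.26 (SE, adjusted p = 1.6e-09, edgeR), or 5.57-fold lower. Slc2a1, which encodes the widely expressed Glut1, stood at 3.97 to 6.37 CPM (median 4.46) and, after injury, at 6.87, 4.72, 5.26, 9.67 and 5.50 CPM. The groups overlapped and the difference, 0.40 ± 0.27, missed the threshold (adjusted p = 0.219, edgeR). Hk2 (chromosome 6, GRCm38, 82725025 to 82774454, minus strand) stood at 540.7 to 612 CPM (median 573) and fell to 73.6, 177, 87.7, 190 and 146 CPM, 4.26-fold lower (log2 -2.09 ± 0.24, adjusted p = 6.28e-09, edgeR). Hk1 (chromosome 10, 62268855 to 62379908, minus strand) went the other way, from 5.21 to 14.3 CPM (median 12.9) to 26.3, 24.4, 29.3, 34.6 and 26.4 CPM, 2.56-fold higher (1.36 ± 0.24, adjusted p = 1.08e-05, edgeR). Each injured library was thus below every contralateral library for Hk2 and above every one for Hk1.

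The phosphofructokinase step, the main control point of glycolysis, showed the same split. Pfkm, the muscle subunit, stood at 1070 to 1641 CPM (median 1391) in contralateral muscle and at 258, 493.4, 291, 242 and 367 CPM in injured muscle (log2 -2.08 ± 0.20, adjusted p = 3.84e-10, edgeR), with a wide gap between the groups. Pfkp, the platelet-type subunit, stood at 5.52 to 12.6 CPM (median 9.06) and rose to 18.1, 15.5, 19.9, 27.4 and 16.9 CPM (1.14 ± 0.27, adjusted p = 0.000536, edgeR), again without overlap. Pfkl, the liver-type subunit, stood at 5.82 to 9.42 CPM (median 7.73) and at 9.37, 7.77, 11.97, 16.8 and 9.00 CPM after injury. These groups overlapped, and the call for Pfkl (0.55 ± 0.22, adjusted p = 0.0305, edgeR) was lost without any of contralateral replicates 2 and 3 or injured replicates 3 and 4 (log2 0.48, 0.50, 0.51 and 0.35) and without the libraries with liver genes (adjusted p = 0.0987).

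The bifunctional enzymes that set fructose 2,6-bisphosphate, the activator of phosphofructokinase, both fell. Pfkfb1 stood at 21.4 to 30.9 CPM (median 25.3) and at 1.09, 6.55, 3.42, 3.06 and 4.10 CPM after injury, 7.06-fold lower and the largest fall among the members (log2 -2.82 ± 0.35, adjusted p = 3.53e-08, edgeR). Pfkfb3 was more variable before injury, at 130 to 536 CPM (median 220), and stood at 25.8, 77.2, 50.3, 13.7 and 70.9 CPM after it (-2.50 ± 0.48, adjusted p = 4.28e-05, edgeR). Every injured library lay below the contralateral range for both genes. Fbp2, the muscle fructose bisphosphatase that works against phosphofructokinase, also fell (-2.25 ± 0.34).

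In the lower pathway the muscle forms fell and enolase 1 rose. Pgam2 stood at 2591 to 4109 CPM (median 3531) in contralateral muscle and at 863, 1234, 825, 1050 and 818 CPM in injured muscle (log2 -1.81 ± 0.28, adjusted p = 1.2e-06, edgeR). Its counterpart Pgam1 was nearly uncounted, at 0 to 2.80 CPM (median 0.686) before and at 1.88, 0.761, 1.18, 3.38 and 0.400 CPM after injury, and its difference of 0.56 ± 0.69 did not pass (adjusted p = 0.511, edgeR). Eno3, the muscle enolase, stood at 3019 to 4535 CPM (median 4007) and fell to 1276, 1644, 897, 641 and 1386 CPM (-1.75 ± 0.27, adjusted p = 1.1e-06, edgeR). Eno1, the widely expressed enolase, stood at 5.59 to 10.4 CPM (median 7.07) and rose to 24.1, 24.1, 28.7, 53.3 and 23.8 CPM, 4.07-fold higher and the largest rise among the members (2.02 ± 0.33, adjusted p = 3.02e-06, edgeR), although most of its transcript end is shared and part of its reads may be missing. The groups did not overlap for Pgam2, Eno3 and Eno1. Gpi1 (-1.28), Aldoa (-2.01), Tpi1 (-1.46) and Pkm (-1.40), which have no separate muscle gene in this set, all fell. Gapdh and Pgk1 gave differences of -0.90 ± 0.43 and -0.21 ± 1.05 that did not pass (adjusted p = 0.0738 and 0.882, edgeR).

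**Figure D2:**
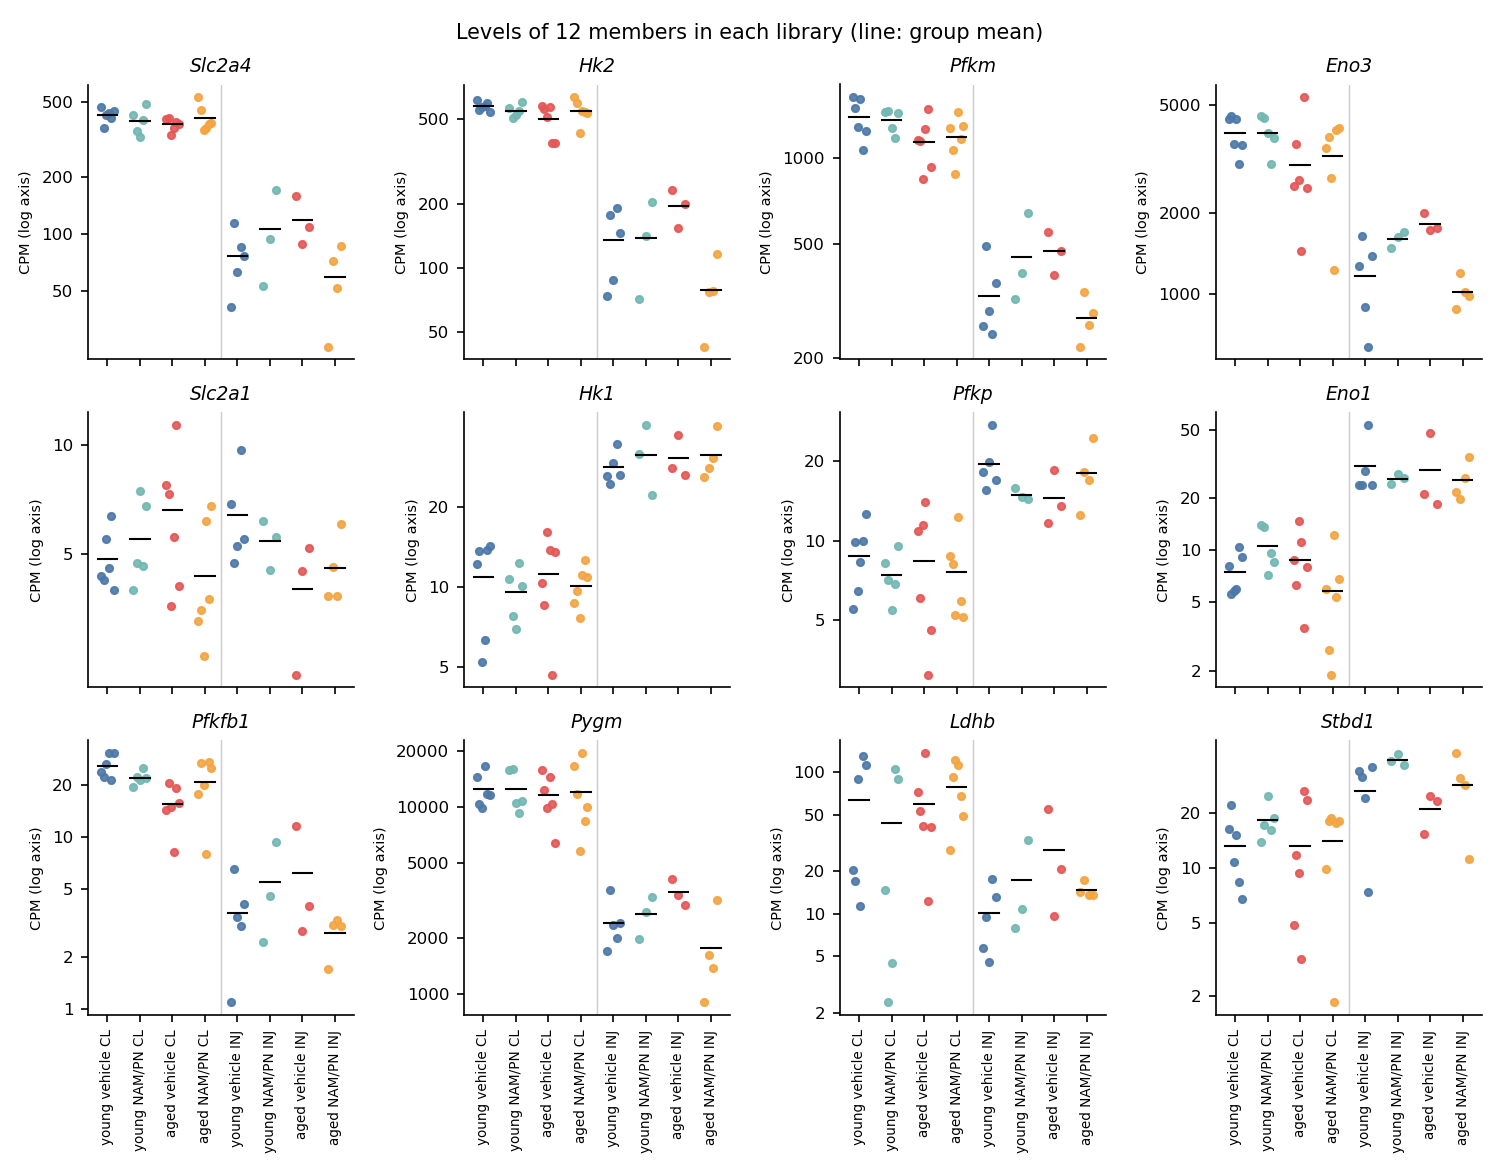
CPM (log axis) of 12 members in every library of the 8 groups, contralateral (CL) left and injured (INJ) right of the grey line, with a black line at each group mean. Slc2a4, Hk2, Pfkm and Pygm drop after injury in every group, Hk1 and Eno1 climb, and Slc2a1 overlaps between legs.

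Both lactate dehydrogenases and the lactate exporter fell. Ldha, whose subunit favours the making of lactate, stood at 660 to 1323 CPM (median 814) and at 290, 412, 258, 289 and 309 CPM after injury (log2 -1.56 ± 0.20, adjusted p = 5.38e-08, edgeR), without overlap. Ldhb, the heart-type subunit, ranged from 11.4 to 132 CPM (median 54.9) over the contralateral libraries and stood at 5.78, 9.44, 4.60, 17.7 and 13.2 CPM after injury. It fell (-2.65 ± 0.74, adjusted p = 0.00267, edgeR), but the groups overlapped, and its contralateral level was high where slow fibre genes were. The 3 contralateral libraries with 11.4 to 20.3 CPM of Ldhb (replicates 4, 2 and 1) had 103 to 233 CPM summed over 10 slow myofibre genes, and the 3 with 89.5 to 132 CPM (replicates 3, 6 and 5) had 1793 to 4881 CPM. Slc16a3, the lactate exporter Mct4, stood at 423 to 847 CPM (median 510) and fell to 79.4, 191, 119, 147 and 108 CPM (-2.20 ± 0.34, adjusted p = 1.19e-06, edgeR). Slc16a1, the widely expressed carrier Mct1 that mostly brings lactate in, stood at 18.8 to 45.7 CPM (median 26.02) and at 18.8, 19.03, 14.1, 22.6 and 18.99 CPM after injury. Its groups overlapped and its difference of -0.66 ± 0.31 missed the threshold (adjusted p = 0.0643, edgeR).

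All glycogen genes of the set fell except Stbd1. Pygm (-2.37 ± 0.30) and the phosphorylase kinase subunits Phka1 (-2.21), Phkb (-1.88) and Phkg1 (-2.13) lie on the breakdown side. On the storage side, Ugp2 (-1.76), the glycogen primer Gyg (-1.35), the synthase Gys1 (-1.27) and the branching enzyme Gbe1 (-0.95) fell by less in log2 terms, although these differences between genes were not tested. Ppp1r3a, the muscle subunit that tethers protein phosphatase to glycogen, stood at 101 to 196 CPM (median 127) and at 19.5, 43.1, 25.8, 15.3 and 24.7 CPM after injury, 5.22-fold lower (-2.39 ± 0.29, adjusted p = 1.63e-08, edgeR). Every injured library lay well below the contralateral ones. Ppp1r3c, another such subunit, fell too (-2.09 ± 0.35). Stbd1, a glycogen-binding protein tied to the delivery of glycogen to lysosomes, stood at 6.78 to 22.1 CPM (median 12.9) and at 33.7, 31.2, 24.2, 7.41 and 35.7 CPM after injury. Injured replicate 4 lay within the contralateral range, and the call (1.00 ± 0.42, adjusted p = 0.0445, edgeR) was lost when any of 8 of the 11 libraries was left out. These were contralateral replicates 3 to 6 and injured replicates 1, 2, 3 and 5, without which the log2 fold change was 0.86 to 1.04 and the adjusted p reached 0.106. It was also lost with the mouse as replicate block (voom, 0.93, adjusted p = 0.0814), in voom without the block (adjusted p = 0.0886) and without the libraries with liver genes (adjusted p = 0.0936, edgeR).

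The glycerol 3-phosphate shuttle, which passes cytosolic reducing equivalents to the mitochondrion, fell on both sides. Gpd1, the cytosolic enzyme, stood at 363 to 654 CPM (median 489) and at 79.4, 164, 96.7, 80.7 and 106 CPM after injury (log2 -2.27 ± 0.25, adjusted p = 3.6e-09, edgeR). Gpd2, the mitochondrial enzyme, stood at 143 to 274 CPM (median 193) and at 56.4, 89.1, 64.5, 61.6 and 63.2 CPM (-1.58 ± 0.23, adjusted p = 4.92e-07, edgeR). Neither gene overlapped between legs.

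The other 3 combinations of age and treatment gave much the same list. In young NAM/PN mice 25 members fell and 3 rose (18.1% and 22.4% of all genes), in aged vehicle mice 25 fell and 3 rose (17.5% and 20.8%), and in aged NAM/PN mice 27 fell and 4 rose (26.1% and 29.2%). The median log2 fold changes of the members were -1.34, -1.14 and -1.83, against 0.04, -0.01 and 0.03 over all genes. In all 4 combinations 24 members fell, as did 1628 of all genes. Hk1, Pfkp and Eno1 rose in all 4, as did 2070 of all genes, and 5 (Gapdh, Pgk1, Pgam1, Slc2a1 and Slc16a1) passed in none. The sign of the estimate was the same in all 4 for 35 of the 37. The fast myofibre list fell alongside, with 17, 17 and 18 of 20 genes called and medians of -1.57, -1.32 and -2.21. All 5 erythrocyte genes fell in both NAM/PN combinations, and 0 of 5 passed in aged vehicle mice (median -0.66).

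Hk1 stood at 31.5, 40.7 and 22.3 CPM in the injured muscle of young NAM/PN mice, at 28.1, 37.2 and 26.5 CPM in that of aged vehicle mice and at 25.98, 28.2, 30.6 and 40.3 CPM in that of aged NAM/PN mice. All of these lay above the highest contralateral library of the same group, which held 12.3, 16.2 and 12.6 CPM. Eno1 rose by 1.29 ± 0.37, 1.73 ± 0.36 and 2.14 ± 0.35 (adjusted p = 0.00578, 0.00027 and 3.45e-06, edgeR), and Pfkp by 1.00 ± 0.32, 0.82 ± 0.31 and 1.26 ± 0.29 (adjusted p = 0.013, 0.0352 and 0.000361, edgeR). The Pfkp call in aged vehicle mice, whose groups overlapped, was lost without contralateral replicates 2, 5 or 6 or injured replicates 2 or 3 (log2 0.61 to 0.87, adjusted p up to 0.203). Pfkl passed in aged NAM/PN mice, where the 4 injured libraries stood at 11.1, 13.5, 16.1 and 14.0 CPM and the contralateral ones at 4.05 to 9.55 CPM (0.92 ± 0.23, adjusted p = 0.0008, edgeR). It did not pass in young NAM/PN (0.15 ± 0.25) and aged vehicle mice (0.25 ± 0.25).

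Besides Pfkl, 4 members called in young vehicle mice missed the threshold in another combination. Eno3 gave -0.72 ± 0.31 in aged vehicle mice (adjusted p = 0.0608, edgeR), where contralateral replicate 4 at 1441 CPM lay below the injured libraries at 1989, 1727 and 1754 CPM. Without that library the value was -0.86 and passed (adjusted p = 0.0198, edgeR). Ldhb gave -1.34 ± 0.86 in young NAM/PN mice and -1.07 ± 0.82 in aged vehicle mice, and Gbe1 gave -0.48 ± 0.36 in young NAM/PN mice. In young NAM/PN contralateral muscle Ldhb stood at 14.7, 2.36, 4.47, 107 and 90.3 CPM while the slow myofibre list stood at 513, 68.7, 60.9, 2321 and 1641 CPM in the same libraries, so again Ldhb was high where slow fibre genes were. Stbd1, which had risen, gave 1.10 ± 0.49, 0.66 ± 0.48 and 1.00 ± 0.44 (adjusted p = 0.0702, 0.287 and 0.0549, edgeR). In aged NAM/PN mice it passed with RLE size factors (adjusted p = 0.0383), DESeq2 (0.0351), total counts (0.0003) and voom with the mouse as replicate block (1.12, adjusted p = 0.0484), and in edgeR without injured replicate 4 or contralateral replicate 3 (adjusted p = 0.0196 without the former).

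A few calls in the groups with 3 injured libraries rested on single libraries. In aged vehicle mice Phkg1 (-0.92, adjusted p = 0.0306), Tpi1 (-0.66, 0.0238), Fbp2 (-1.14, 0.0203), Pfkfb3 (-1.65, 0.0193), Pfkfb1 (-1.36, 0.00738) and Gbe1 (-1.25, 0.00588) each lost the edgeR call without 1 to 5 of the 9 libraries, most often injured replicates 2 and 3, and the log2 values were then -1.58 to -0.46. In young NAM/PN mice Gys1 and Ugp2 lost it without injured replicate 1 (-0.66 and -0.81, adjusted p = 0.0545 and 0.09, edgeR).

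Scaling by total counts in place of TMM raised the median of all genes by 0.94, 0.79, 0.70 and 1.05 in the 4 injury comparisons (vehicle then NAM/PN, young before aged). The split of calls over all genes then moved from 3698 higher and 3306 lower to 8326 and 799 in young vehicle mice, while that of the members moved from 5 and 27 to 6 and 24. The members' calls became 7 and 17, 5 and 11, and 7 and 23 in the other 3. Over all genes they became 6883 and 547, 6211 and 357, and 8446 and 804. Tpi1 in aged vehicle mice was the only called member whose sign turned (0.05). Among injured muscles the same scaling moved the median of all genes by -0.18 for age in vehicle mice and by 0.28 for NAM/PN in aged mice.

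Isoform pairs compare 2 genes inside a library, so that library scaling largely cancels. For 10 pairs the log2 ratio, with 0.5 CPM added to each gene, was compared in the 10 comparisons without interactions by two-sided exact permutation tests over libraries, and p-values were adjusted over these 100 tests. None of the 100 passed an adjusted p of 0.05, and the smallest adjusted p was 0.0541, although 31 had an unadjusted p under 0.05. In young vehicle mice the smallest p that 5 against 6 libraries allow is 0.00433, and it was reached by 8 pairs, whose libraries did not overlap between legs. How many pairs of genes outside the set would part as fully was not counted. In this comparison 59.7% of all genes had an unadjusted p under 0.05 (edgeR).

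Hk2/Hk1 stood at 5.20 to 6.64 (median 5.49) in contralateral muscle of young vehicle mice and at 1.47 to 2.83 in injured muscle, a difference of the means of -3.60 (exact permutation p = 0.00433, adjusted p = 0.0541). The corresponding differences were -3.74 for Eno3/Eno1, -3.24 for Pfkm/Pfkp, -2.89 for Slc2a4/Slc2a1, -2.60 for Pfkm/Pfkl, -2.33 for Pgam2/Pgam1, -1.61 for Slc16a3/Slc16a1 and -0.74 for Gpd1/Gpd2, each with the same p. In each of these 8 pairs the muscle or cytosolic form lost ground against its partner. Pgam1 was nearly uncounted, so the Pgam2/Pgam1 value rests largely on Pgam2. Pfkfb1/Pfkfb3 (-0.27, exact permutation p = 0.567) and Ldha/Ldhb (0.63, exact permutation p = 0.502) overlapped between legs.

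Within the 5 young vehicle mice that gave both legs, Hk2/Hk1 was lower in the injured leg of all 5, by 3.42 ± 0.94 on the log2 scale (SD, the mean difference being -3.42, exact permutation p = 0.0625, the smallest that 5 mice allow). The direction was shared by all mice with both legs in the other combinations too, with mean differences of -3.80 in 3 young NAM/PN mice, -3.18 in 3 aged vehicle mice and -4.50 in 4 aged NAM/PN mice. Eno3/Eno1 was also lower in the injured leg of every one of these mice, with means of -3.70, -2.58, -2.72 and -3.42. Between groups, aged NAM/PN mice had the smallest p that 4 against 6 libraries allow (0.00952, adjusted p = 0.068, exact permutation test) for Hk2/Hk1 (-4.46), Eno3/Eno1 (-3.79), Pfkm/Pfkp (-3.33), Slc2a4/Slc2a1 (-3.02), Pfkm/Pfkl (-3.01) and Pgam2/Pgam1 (-2.76). In aged vehicle mice the differences were -2.84 for Hk2/Hk1, -2.28 for Eno3/Eno1 and -1.09 for Slc2a4/Slc2a1, the last with overlap between legs.

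**Figure D3:**
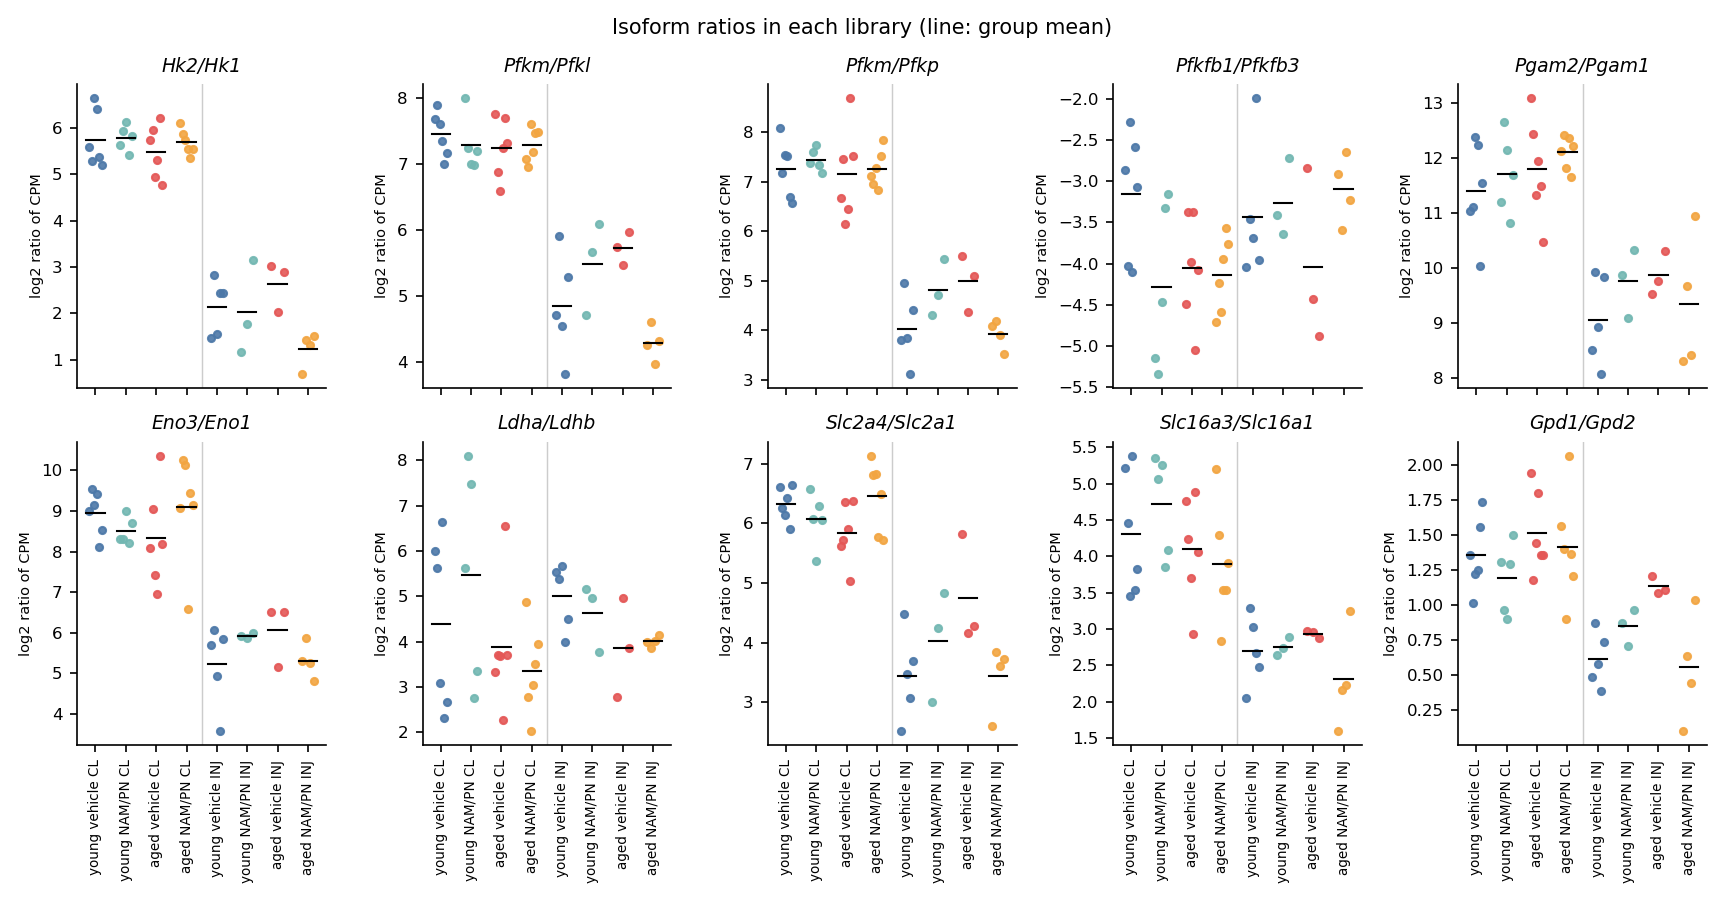
Log2 ratio of the CPM of 10 isoform pairs in every library of the 8 groups, contralateral (CL) left and injured (INJ) right of the grey line, with a black line at each group mean. Hk2/Hk1, Pfkm/Pfkp and Eno3/Eno1 step down after injury in all 4 combinations, whereas Pfkfb1/Pfkfb3 and Ldha/Ldhb overlap.

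Together the 37 members took 3.91 ± 0.53% of all counts (SD, n = 6) in contralateral muscle of young vehicle mice, 4.03 ± 0.53% (n = 5) of young NAM/PN, 3.64 ± 0.35% (n = 6) of aged vehicle and 3.53 ± 0.69% (n = 6) of aged NAM/PN mice. In injured muscle they took 1.89 ± 0.33% (n = 5), 2.09 ± 0.28% (n = 3), 2.37 ± 0.11% (n = 3) and 1.60 ± 0.36% (n = 4) in the same order. No injured library reached the lowest contralateral library, with injured values of 1.16% to 2.497% and contralateral ones of 2.5% to 4.61%, although aged vehicle injured replicate 1 and aged NAM/PN contralateral replicate 3 nearly met at these edges. Mitochondrially encoded genes took 14.2% to 29.6% of contralateral and 6.68% to 19.4% of injured counts. With them left out, the members' share was 5.06% and 2.10% in young vehicle mice and 4.65% and 2.80% in aged vehicle mice, for contralateral and injured muscle.

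**Figure D4:**
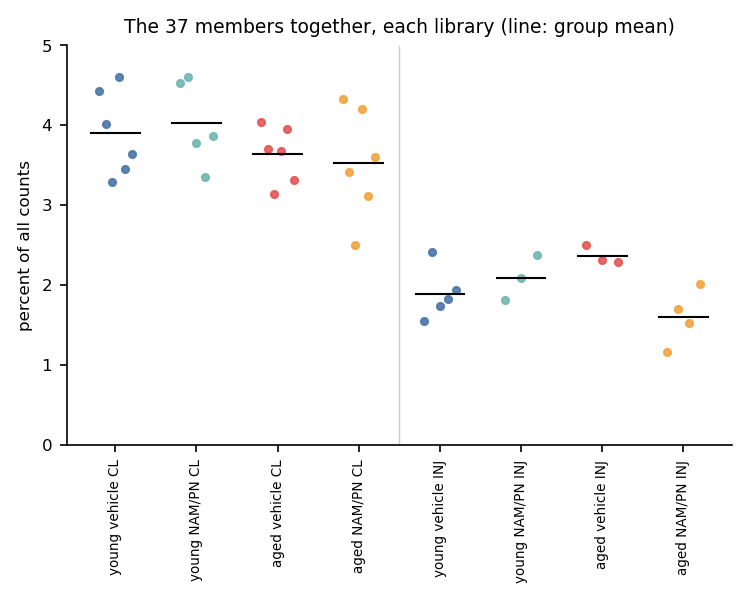
Share of all counts held by the 37 members, in percent, for every library of the 8 groups (CL contralateral, INJ injured), with a black line at each group mean. Injured libraries lie between 1.16% and 2.497% and contralateral libraries between 2.5% and 4.61%.

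Age did not move any member past the threshold in vehicle mice. In contralateral muscle 0 members passed, against 1.1% of all genes, and 2 had an unadjusted p under 0.05, against 12.7% of all genes. DESeq2 and voom also called 0 members, and voom called 2 of all genes. Without the libraries with liver genes edgeR called 0 members and 2 of all genes. Within the 1 spelling that holds both ages it called 0 of either. The 2 with the smallest p were Pfkfb1, at 8.21 to 20.7 CPM (median 15.4) in aged and 21.4 to 30.9 CPM in young mice (log2 -0.74 ± 0.30, adjusted p = 0.272, edgeR), and Ppp1r3a, at 47.6 to 136 CPM (median 93.3) in aged and 101 to 196 CPM in young mice (-0.53 ± 0.25, adjusted p = 0.374, edgeR). Pfkfb1 did not overlap between ages and Ppp1r3a did. Within the 1 spelling that holds both ages, the values were -0.59 and -0.43. All 12 macrophage genes were higher in aged muscle with an unadjusted p under 0.05 (median 1.49, 2 called), and 7 of 8 liver genes were called lower, beside a median of -0.12 for the members. The macrophage sum was 659 and 1451 CPM in aged replicates 3 and 6 and 109 to 208 CPM in the other aged libraries. Young libraries held 117 to 238 CPM. Aged replicates 3 and 6 also held 910 and 457 CPM of the regenerating muscle list, against 75.8 to 139 CPM in the other aged ones. Most of the liver signal lay in young replicates 1 and 3.

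In injured muscle 0 members passed for age, against 0% of all genes, and 7 had an unadjusted p under 0.05, all higher in aged mice, against 6.31% of all genes. DESeq2 and voom called 0. Gpd1 stood at 175, 175 and 165 CPM in aged vehicle and at 79.4, 164, 96.7, 80.7 and 106 CPM in young vehicle mice, so that the groups barely parted (log2 0.71 ± 0.28, adjusted p = 0.651, edgeR). Pfkm stood at 553, 389 and 475 CPM against 258, 493.4, 291, 242 and 367 CPM, with overlap (0.52 ± 0.22, adjusted p = 0.733, edgeR). Within the 1 spelling of the descriptions the values were 0.35 and 0.14, and 0 members had an unadjusted p under 0.05. The fast myofibre list moved with them, 6 of its 20 genes having an unadjusted p under 0.05, all higher, with a median of 0.54 beside 0.38 for the members. Of the 5 erythrocyte genes tested, 4 were higher with such a p (median 1.07), and 5 of 8 fibroblast genes were lower (median -0.95). The part of these lists in the members' values was not tested.

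No member passed for NAM/PN in contralateral muscle of either age. In aged mice 0 passed, against 0.00793% of all genes, and 1 had an unadjusted p under 0.05, against 4.11% of all genes. This was Slc2a1, at 2.62 to 6.81 CPM (median 3.63) with NAM/PN and 3.59 to 11.4 CPM (median 6.43) with vehicle (log2 -0.59 ± 0.27, adjusted p = 1, edgeR), followed by Eno1 (-0.59, adjusted p = 1, edgeR). Leaving out 1 library moved them between -0.78 and -0.36 and between -0.93 and -0.38. The members' median was -0.0015. In young mice 0 passed, against 0% of all genes, and 2 had an unadjusted p under 0.05, against 4.87% of all genes. Slc16a1 gave -0.67 ± 0.31 and Pfkfb3 gave 0.94 ± 0.44 (adjusted p = 0.995 for both, edgeR), with overlap between the groups for both. Within 1 spelling these were -0.33 and 0.67, and the members' median was -0.05. DESeq2 and voom called 0 members in either age. Some marker lists did differ by an unadjusted p under 0.05. In aged mice 5 of 12 macrophage genes were lower (median -0.83) and 3 of 6 adipocyte genes were higher (median 1.41). In young mice 5 of 10 regenerating muscle genes were higher (median 1.04) and 7 of 8 liver genes were lower (median -5.73). Of the 20 fast myofibre genes 0 had such a p in either age. Whether these lists bear on the members' values was not tested.

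In the injured muscle of young mice 0 members passed for NAM/PN, against 0% of all genes, and 2 had an unadjusted p under 0.05, against 2.75%. Tpi1 stood at 298, 336 and 376 CPM with NAM/PN and at 243, 285, 213, 146 and 279 CPM with vehicle (log2 0.53 ± 0.23, adjusted p = 1, edgeR), and Pfkm gave 0.46 ± 0.22 (adjusted p = 1, edgeR). Tpi1 did not overlap and Pfkm did. Within 1 spelling, which left 3 vehicle libraries, the values were 0.72 and 0.76 (adjusted p = 0.597 for both, edgeR), and 10 of the 36 members tested had an unadjusted p under 0.05. Without the libraries with liver genes 6 members had such a p. The shares of all genes with such a p in these smaller sets of libraries are not given here. Leaving out 1 library moved Pfkm between 0.12 (without NAM/PN replicate 3) and 0.65. DESeq2 and voom called 0.

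In the injured muscle of aged mice the members were lower with NAM/PN on the whole, yet short of the threshold in edgeR. The test called 0 members, against 0% of all genes, while 19 had an unadjusted p under 0.05, 18 of them lower, against 7.38% of all genes, and the members' median log2 fold change was -0.57 against 0.00 over all genes. DESeq2 called 9 members, all lower, and voom called 0. Under total counts 14 members had an unadjusted p under 0.05. Hk2 stood at 42.5, 76.6, 77.3 and 116 CPM with NAM/PN and at 232, 153 and 199 CPM with vehicle. The groups did not overlap, and the difference of -1.32 ± 0.28 came closest to the threshold (adjusted p = 0.056, edgeR). Gpd1 stood at 40.2, 75.8, 60.6 and 119 CPM against 175, 175 and 165 CPM, again without overlap (-1.22 ± 0.29, adjusted p = 0.0983, edgeR). Without NAM/PN replicate 4 the test called 5 members, all lower, with Hk2 at -1.57 (adjusted p = 0.00809, edgeR) and Gpd1 at -1.55 (adjusted p = 0.00916, edgeR), and without vehicle replicate 2 it called 1, Hk2 (-1.47). The shares of all genes under these other fits are not given here, so the members' counts there stand without a background.

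The 18 lower members reached across the roles: Slc2a4 (-1.01) and Hk2 for glucose entry, Pfkm (-0.77), Pfkfb1 (-1.12), Pfkfb3 (-1.75) and Fbp2 (-1.42) around phosphofructokinase, Aldoa (-0.88), Tpi1 (-0.50) and Eno3 (-0.84) further down, Pygm (-0.99), Phka1 (-1.08), Phkb (-0.88), Phkg1 (-1.41), Ugp2 (-0.71), Ppp1r3a (-1.05) and Ppp1r3c (-1.36) for glycogen, and Gpd1 and Gpd2 (-0.73) for the shuttle. These were named for an unadjusted p under 0.05 and none had an adjusted p under 0.05 in edgeR. The 1 member higher by that measure was Pfkl, at 11.1, 13.5, 16.1 and 14.0 CPM with NAM/PN and 9.86, 8.34 and 7.09 CPM with vehicle (0.71 ± 0.26, adjusted p = 0.398, edgeR). The fast myofibre list was lower beside them, 14 of 20 genes with an unadjusted p under 0.05, all lower, and a median of -0.94, and its sum was 37891 to 83348 CPM with NAM/PN and 96937 to 112054 CPM with vehicle. All 5 erythrocyte genes tested were lower as well, 3 with an unadjusted p under 0.05 (median -0.92). The regenerating muscle, macrophage and fibroblast lists had medians of 0.18, 0.29 and 0.61, and the part of these lists in the members' values was not tested.

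**Figure D5:**
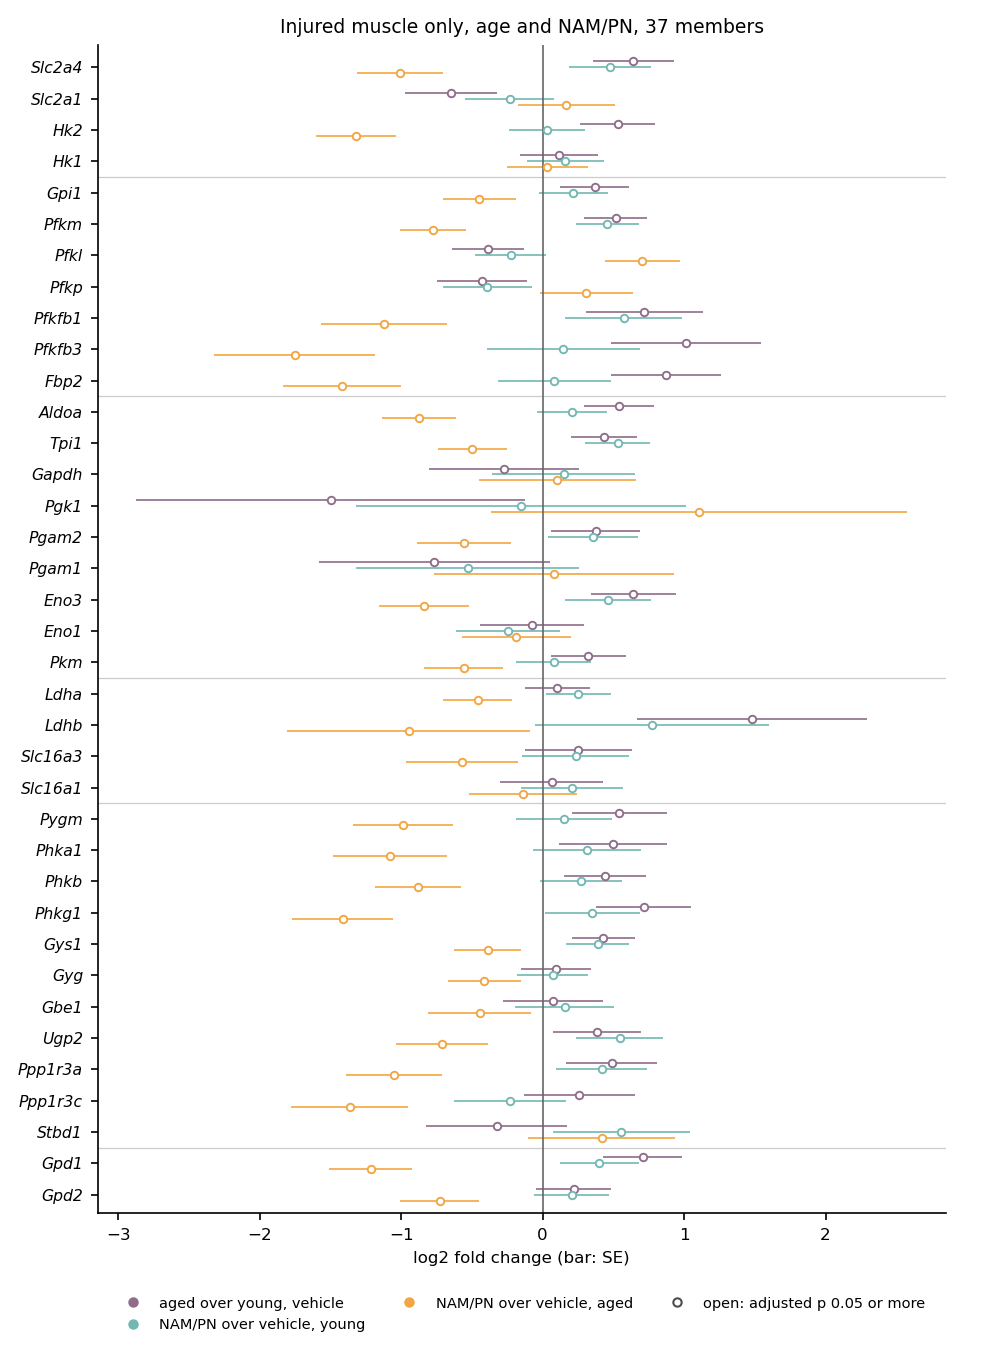
Log2 fold change among injured muscles for the 37 members (rows, grouped by role), for aged over young vehicle mice, NAM/PN over vehicle in young mice and NAM/PN over vehicle in aged mice, with bars for the standard error. All points are open (adjusted p of 0.05 or more), and those for NAM/PN in aged mice lie left of 0 for 29 of the 37 members.

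Of the 10 isoform ratios, 8 had a lower mean with NAM/PN than with vehicle in aged injured muscle. Hk2/Hk1 was 1.24 ± 0.37 (SD, n = 4) with NAM/PN and 2.65 ± 0.54 (n = 3) with vehicle, a difference of -1.41. Pfkm/Pfkl (-1.44), Slc2a4/Slc2a1 (-1.31), Pfkm/Pfkp (-1.06) and Gpd1/Gpd2 (-0.58) were lower as well. None of these 5 overlapped between treatments, and each had the smallest p that 4 against 3 libraries allow (exact permutation p = 0.0571, adjusted p = 0.154), so that this design cannot take a ratio below 0.05. The other 5 overlapped, with exact permutation p-values of 0.229 to 0.629: Eno3/Eno1 (-0.76), Slc16a3/Slc16a1 (-0.63) and Pgam2/Pgam1 (-0.53) had lower means, and Ldha/Ldhb (0.14) and Pfkfb1/Pfkfb3 (0.95) had higher ones. How many pairs of genes outside the set would part between treatments was not counted.

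Tests of whether one effect differed with another found none past the threshold. Age by injury in vehicle mice gave 0 members, against 0% of all genes, and 12 with an unadjusted p under 0.05, against 9.7%, led by Pfkfb1 (log2 1.46 ± 0.51, adjusted p = 0.375, edgeR) and Phkg1 (1.21 ± 0.43, adjusted p = 0.381, edgeR). For both, the estimated fall with injury was smaller in aged than in young mice, short of the threshold, and within 1 spelling the values were 0.79 and 0.68. Pfkfb1 also stood lower in aged than in young contralateral muscle, which enters this value. Without aged vehicle injured replicate 1 the Pfkfb1 value was 0.66, and without any other single library it was at least 1.23. NAM/PN by injury in aged mice gave 0, against 0% of all genes, and 15 with an unadjusted p under 0.05, all lower, against 7.64%, led by Hk2 (-1.46 ± 0.35) and Phkg1 (-1.59 ± 0.44, adjusted p = 0.32 for both, edgeR). NAM/PN by injury in young mice gave 0, against 0.0952% of all genes, and 0 with an unadjusted p under 0.05, against 4.31%, the smallest p being those of Ppp1r3a (0.84) and Slc16a1 (0.88, adjusted p = 1 for both, edgeR). Within 1 spelling these were 1.24 and 0.53, and 12 members had an unadjusted p under 0.05, against 4 without the libraries with liver genes. NAM/PN by age in injured muscle gave 0, against 0% of all genes, and 20 with an unadjusted p under 0.05, 19 of them lower, against 8.77%, led by Gpd1 (-1.62 ± 0.40) and Pfkm (-1.23 ± 0.32, adjusted p = 0.199 for both, edgeR). DESeq2 called 3 members in NAM/PN by injury in aged mice, 8 in NAM/PN by age, and 0 in the other interactions, and voom called 0 in all 4. Without aged NAM/PN injured replicate 4, edgeR called Gpd1 in NAM/PN by age (-1.95, adjusted p = 0.0365). The shares of all genes in these fits, within 1 spelling and without the libraries with liver genes are not given here. The 3 interactions that involve aged mice share the aged vehicle injured libraries with the comparisons on age and on NAM/PN in aged mice above, and that in young mice shares its libraries with the young NAM/PN comparisons. The fast myofibre list had medians of 0.58, -0.95 and -0.98 in age by injury, NAM/PN by injury in aged mice and NAM/PN by age, beside 0.48, -0.56 and -0.93 for the members. The erythrocyte list moved the same way, with medians of 1.25, -1.31 and -1.18, and in age by injury 10 of 12 macrophage genes were lower with an unadjusted p under 0.05 (median -1.62). That comparison holds aged vehicle contralateral replicates 3 and 6, whose macrophage sums were high.

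Genes that stand next to the members in metabolism were counted from lists named with earlier results of these data known. Of 28 other glycolysis and glycogen genes tested, 14 fell and 7 rose with injury in young vehicle mice, where 26.2% of all genes fell and 29.3% rose. The names that follow were chosen after their values were seen. Phosphoglucomutase Pgm1 (log2 -2.14), the laforin gene Epm2a (-1.90), the fructose 2,6-bisphosphatase Tigar (-2.78) and basigin, the chaperone of the lactate carriers (Bsg, -1.25), fell as the members did. The 7 that rose were the brain phosphorylase Pygb (1.41), the liver phosphorylase kinase subunit Phka2 (1.26), hexokinase 3 of blood cells (Hk3, 2.82), neuronal enolase (Eno2, 1.84), phosphoglucomutase 2 (Pgm2, 1.78), the monocarboxylate carrier Slc16a7 (1.28) and embigin, another chaperone of lactate carriers (Emb, 3.23). Slc2a3, the neuronal glucose transporter, fell (-1.90), and the liver phosphorylase Pygl (0.46) did not pass. Pygb and Phka2 rose in all 4 combinations.

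Of 20 genes of pyruvate entry and the malate-aspartate shuttle, 18 fell in young vehicle mice, 14 in young NAM/PN mice, 12 in aged vehicle mice and 18 in aged NAM/PN mice. Over all genes 26.2%, 18.1%, 17.5% and 26.1% fell, in the same order. The mitochondrial pyruvate carrier Mpc2 (-2.32), the pyruvate dehydrogenase subunit Pdha1 (-1.60), the kinase Pdk4 (-1.66) and the aspartate-glutamate carrier Slc25a12 (-2.18) are among them in young vehicle mice. Pdk3, another pyruvate dehydrogenase kinase, was the only gene of this list that rose, and it did so in all 4 combinations (3.02, 2.28, 2.96 and 2.23). Of the 8 pentose phosphate genes, which make NADPH and ribose from glucose 6-phosphate, 4 rose and 1 fell in young vehicle mice. There 29.3% of all genes rose and 26.2% fell. G6pdx (1.44) and Pgd (1.45), the NADPH-making steps, rose in all 4 combinations, and Rpia (-1.03) fell in all 4. Of 14 regulators tested, 2 rose and 9 fell in young vehicle mice, against the same 29.3% and 26.2% of all genes. Hif1a rose (1.67), while Epas1 (-1.66), the carbohydrate-response factor Mlxipl (-2.08) and the AMP-activated kinase subunit Prkaa2 (-1.88) fell, each in all 4 combinations.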

How the data were processed

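RNA of 38 gastrocnemius muscles (250 ng per library) was made by the authors into 3′ end libraries (QuantSeq), aligned to GRCm38 with STAR and counted per gene with htseq-count (HTSeq 2.16.2 in the submitters' processing notes). The annotation release and strand setting are not given in the sources used here. The deposited table holds raw counts, not normalized, for 27554 Ensembl genes, and identifiers were matched to symbols. Groups came from the sample labels. The libraries of a group are different mice.

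Counts were tested with edgeR 4.0.16 (filterByExpr, TMM, quasi-likelihood test, R 4.3.3) over all 38 libraries with 1 coefficient per group. P-values were Benjamini-Hochberg adjusted over 12610 genes, at a threshold of 0.05, in 14 comparisons. Isoform ratios and exact permutation tests used scipy 1.17.1, with 0.5 CPM added. The steps were tested on simulated data. There edgeR recovered 47.4% of genes with a log2 change of 1 for injury in young vehicle mice. For NAM/PN in aged injured muscle it recovered 26.4%, and for age in vehicle injured muscle 33%. At a log2 change of 2 these were 95.9%, 83.4% and 81.9%. A member that was not called may thus still have changed. Alternatives were RLE size factors, total counts, no filter, DESeq2 1.42.0, voom (limma 3.58.1) with and without the mouse as a block, the libraries of 1 description spelling, each library left out and, added after the liver genes were seen, 3 libraries left out.

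Legs of 15 mice were paired by the mouse identifier in the labels. The deviations of the paired legs from their group means correlated at -0.303 to 0.252, over 0.1 in 5 of 15, and the consensus correlation within mice was 0.0484.

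The members and all lists were chosen with earlier results of these data known. All members were counted. For members of the isoform pairs and the 5 largest changes in each direction in young vehicle mice, the value in every injured library is given, with the range and median of the 6 contralateral ones, and in comparisons other than injury up to 6 called members are named, or the 2 with the smallest p where none was called. Other names in those comparisons were chosen after their values were seen. Totals of 4032414 to 7507191 counts limit the precision of members counted by few reads.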

Additional observations from a re-analysis of the deposited data

Results flagged for a closer look

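In groups of 4 to 10 libraries, 20 of 288 member levels and ratios had 1 library far from the rest by Dixon's criterion, where chance gives about 1 in 20, or 14.4. Aged NAM/PN contralateral replicate 4 stood apart for Gyg (417.6 CPM, others 148.9 to 225.8), Slc16a1 (49.88 CPM, others 20.12 to 29.5) and the Eno3/Eno1 ratio (6.59, others 9.065 to 10.25). Aged vehicle contralateral replicate 4 stood apart for Gys1 (1080 CPM, others 442 to 679.6) and Fbp2 (15.09 CPM, others 54.97 to 69.88). Replicate 5 of that group did so for Ldha (1196 CPM, others 542.2 to 730.6) and Ldha/Ldhb (6.554, others 2.273 to 3.715), and replicate 1 for Slc16a3 (787.3 CPM, others 276.6 to 462.5).

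Among young contralateral muscles, vehicle replicate 3 stood apart for Pgk1 (2.76 CPM, others 0 to 0.8566), vehicle replicate 4 for Ppp1r3a (196.2 CPM, others 100.5 to 135.8) and NAM/PN replicate 1 for Pfkl (5.232 CPM, others 8.888 to 9.439) and Pfkm/Pfkl (7.991, others 6.977 to 7.235). Among injured muscles of young vehicle mice, replicate 4 did so for Eno1 (53.34 CPM, others 23.79 to 28.68) and Pfkfb1/Pfkfb3 (-1.995, others -4.043 to -3.463), and replicate 2 for Phkg1 (92.26 CPM, others 41.25 to 46.09) and Gpd2 (89.07 CPM, others 56.4 to 64.46). Among injured muscles of aged NAM/PN mice, replicate 4 did so for Gpi1 (489.5 CPM, others 224.7 to 268.9) and Slc16a3 (208 CPM, others 53.14 to 75.67), replicate 1 for Pfkfb1 (1.714 CPM, others 3.028 to 3.283) and replicate 2 for Ldhb (17.23 CPM, others 13.68 to 14.24).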

How the results depend on the processing

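The injury fold changes of the 37 members (148 results) kept their direction and side of the threshold in 2250 of 2368 alternatives, 71 lost the call, 21 gained it and 26 turned sign. No isoform ratio had passed, and leaving out a library raises the smallest p possible, so their alternatives mostly compare direction. The direction of the ratios was kept in 531 of 540 and turned in 9. Members called with injury were 30 to 32, 26 to 28, 21 to 29 and 31 to 33 (young vehicle, young NAM/PN, aged vehicle, aged NAM/PN) when 1 library was left out. With the mouse as a replicate block (voom) they were 31, 28, 28 and 32, with 0 in every other comparison. Total counts gave 16 in aged vehicle mice. DESeq2 gave 9 members for NAM/PN in aged injured muscle, 3 for NAM/PN by injury in aged mice and 8 for NAM/PN by age, where leaving out 1 library gave 0 to 5 for the first and 0 to 1 for the last. The cause was not tested, and the shares of all genes called under these fits are not given here. Without mitochondrially encoded genes the members' share was 5.058%, 5.213%, 4.646% and 4.64% in contralateral muscle and 2.798% in aged vehicle injured muscle.

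Signs turned under total counts for Gapdh (0.0219, 0.0789 and 0.2096 in young vehicle, young NAM/PN and aged NAM/PN mice), Slc16a1 (0.2718, 0.2527 and 0.3807 in young vehicle, aged vehicle and aged NAM/PN mice), Slc2a1 (0.754 and 0.0414 in young NAM/PN and aged vehicle mice), Pgk1 (0.6993, young vehicle), Gbe1 (0.2642, young NAM/PN) and Tpi1 (0.0486, aged vehicle). Slc2a1 in young NAM/PN mice also turned with RLE (0.0279) and DESeq2 (0.0273). Without the 3 libraries with liver genes, Pgk1 in young vehicle mice was 0.7923 and Pfkl in young NAM/PN mice -0.0508. In aged vehicle mice Pfkfb1/Pfkfb3 was -0.06723 with 0.1 CPM added and -0.1151 in the replicate block within mice, and Ldha/Ldhb was 0.002212 with 0.1 CPM added.

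Leaving out 1 library turned values that had not passed a test: Pgk1 in young vehicle mice (-0.976 to 0.664), Pfkl (-0.0503 to 0.2952), Slc16a1 (-0.0207 to 0.4333) and Slc2a1 (-0.1313 to 0.097) in young NAM/PN mice, Slc2a1 in aged NAM/PN mice (-0.0959 to 0.2529), Ldha/Ldhb (-0.5628 to 0.5314) and Pfkfb1/Pfkfb3 (-0.5904 to 0.4256) with injury in aged vehicle mice, and Ldha/Ldhb for NAM/PN in aged injured muscle (-0.403 to 0.6912).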
